A study of Mus musculus with 12 samples.

Results

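The Zfp genes are mouse genes for zinc finger proteins that carry a number in place of a functional name. The 219 genes described here were chosen by symbol, Zfp followed by a number, and selected on a measured value, a mean normalized read count of at least 100 over the 6 libraries of the table that compares the diets after surgery by transverse aortic constriction (TAC). That table lists 15936 genes, of which 324 are Zfp genes. The remaining 105 lay below the threshold. The members just inside it were Zfp128, Zfp956 and Zfp738, with means of 100.3, 100.4 and 100.7, and the Zfp genes just outside it were Zfp472, Zfp229 and Zfp982, with 99.0, 98.5 and 98.3. All 219 members were listed and tested in each of the 4 deposited tables.

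PolyA RNA was sequenced from hearts of male C57Bl/6J mice, 12 weeks old, with 3 samples in each of 4 groups. The control diet held all essential amino acids at the levels of ordinary chow, and the BCAA-free diet lacked the branched-chain amino acids leucine, isoleucine and valine. Each diet began 4 days before the operation, was kept afterwards, and was combined either with sham surgery or with TAC, which narrows the aorta so that the left ventricle works against a raised pressure. Hearts were taken 2 weeks after surgery, and each group is named by its diet and operation, such as control diet TAC or BCAA-free sham. Whether a sample was 1 heart or pooled hearts is not in the labels, so a p-value covers the spread between these samples alone, and that spread may be technical. Depth was 13847107 to 52065900 recovered reads per library over the 4 tables, lowest in BCAA-free sham replicate 2 and highest in control diet TAC replicate 3. All 10 cardiomyocyte markers were present in every table. Values are normalized read counts, comparable only within a table, and fold changes are on the log2(value + 1) scale and given ± SE.

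Most Zfp proteins bind DNA through tandem zinc fingers of the C2H2 type, each a short loop held by a zinc ion, in which a few residues read neighbouring bases. Many carry at their start a KRAB domain, which recruits the corepressor TRIM28 and with it histone methylation and compact chromatin, and many of these KRAB proteins silence transposable elements. The KRAB genes stand in clusters of closely related copies, so reads shared between copies could have been split in the authors' counting, and values of such members are uncertain to that extent. Not every gene with a Zfp symbol encodes a DNA-binding factor: several members do other work, such as the control of mRNA decay by Zfp36.

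The label of zinc finger transcription factors was checked on the coding sequences. A pattern of the C2H2 finger was found between 0 and 41 times per protein, with a median of 10. Zfp142 had the longest array, 41 fingers. Zfp36, Zfp703, Zfp330, Zfp839 and Zfp503 had no match. Zfp36 encodes tristetraprolin, whose fingers are of the CCCH type and bind AU-rich RNA, and Zfp703 and Zfp503 encode transcriptional corepressors. A pattern of the KRAB A box was found in 100 members, with a median of 12 fingers, and was not found in 119, with a median of 8. The KRAB members named below are those with the pattern. A KRAB domain that departs from the pattern is missed, so the 119 are not shown to lack the domain. Position in the genome was also not used by the rule. Chromosome 7 held 57 members, or 26.0%, against 8.01% of all genes of the table, and chromosome 17 held 24, or 11%, against 4.68%. Of the chromosome 17 members 19 had the KRAB pattern. The transcripts of the KRAB members had a median GC content of 42.0%, against 50.7% in the other members and 49.8% over all genes.

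Promoter windows from RefSeq (GRCm38.p6) were matched by symbol for 182 of the 219 members, as 220 windows of 250 bases before the annotated start. The core recognised by ETS factors, CCGGAAG or its reverse complement CTTCCGG, was present in windows of 36 members, or 19.8%, against 14.4% of all genes of the table with a window. It was found for 23.1% of the KRAB members and 16.5% of the others. A match of letters is a description and not a measured binding site. The windows of Zfp579, Zfp770 and Zfp787 are printed here from 5′ to 3′ on the gene's strand, with motif matches in capitals. The printed windows end before the first base that GENCODE places in the gene. These members were chosen as those called in 3 comparisons, 1 of them that of the diets after TAC, whose libraries the rule used. They are 3 of the 5 members that passed the test in more than 1 of the 4 other comparisons. These windows were chosen after the calls were known.
Zfp579, chr7:4996159-4996351, minus strand, ETS core in capitals: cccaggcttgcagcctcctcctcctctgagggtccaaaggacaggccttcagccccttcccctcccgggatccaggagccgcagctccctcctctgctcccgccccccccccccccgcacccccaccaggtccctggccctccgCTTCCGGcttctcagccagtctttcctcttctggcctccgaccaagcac
Zfp787, chr7:6155998-6156215, minus strand, ETS core in capitals: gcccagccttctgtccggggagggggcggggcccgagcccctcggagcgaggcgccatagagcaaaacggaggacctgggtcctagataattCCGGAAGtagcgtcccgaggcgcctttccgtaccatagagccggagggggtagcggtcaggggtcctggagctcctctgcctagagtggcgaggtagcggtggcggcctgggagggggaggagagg
Zfp770, chr2:114201470-114201682, minus strand, with no match of the ETS core: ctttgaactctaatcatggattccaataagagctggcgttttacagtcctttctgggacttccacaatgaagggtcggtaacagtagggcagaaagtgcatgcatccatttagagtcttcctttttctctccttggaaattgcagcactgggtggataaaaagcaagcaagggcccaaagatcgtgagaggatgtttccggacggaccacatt

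Levels differed widely between members. Means in the table that chose the members ran from 100.3 to 19846 with a median of 363, and 25 members reached 1000. Members with the KRAB pattern had a median of 195 and the others 574. Zfp106, an RNA-binding zinc finger protein with 3 C2H2 matches, was highest, at 17143 to 24076 in the 6 libraries. It was followed by Zfp651 (mean 6566), Zfp91 (4666), Zfp706 (3689), Zfp445 (2702) and Zfp207 (2135). Zfp445 is a KRAB protein known for the upkeep of imprints, and was the 1 KRAB member among these 6. Per kilobase of the longest transcript, Zfp106 was again highest, with a normalized read count of 2184 per kilobase, followed by Zfp651 with 1034, Zfp91 with 844 and Zfp706 with 835.

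The first question was which members moved under pressure overload when the amino acid supply was normal, TAC against sham on the control diet. The 1 member that fell was Zfp787, by limma's moderated test with adjustment over 15397 genes, and no member rose, where 4.04% of all genes were called, 2.95% higher and 1.09% lower. Zfp787 (ENSMUSG00000046792, chr7:6131491-6155997, minus strand) encodes a 7-finger protein without the KRAB pattern. Its values were 1223, 1147 and 1275 in sham and 915, 790 and 869 in TAC hearts. All TAC libraries lay below all sham libraries, with a log2 fold change of -0.50 ± 0.10 (adjusted p = 0.042). With 1 library left out, the call was kept without control diet TAC replicate 1 and lost without any of the other 5 libraries, with adjusted p from 0.0409 to 0.114. Next in order of p stood 3 members that missed the threshold: Zfp612, a KRAB member (-0.71 ± 0.17, adjusted p = 0.0516), Zfp428 (-0.60 ± 0.15, 0.0563) and Zfp14, a KRAB member (-0.63 ± 0.16, 0.0563). Their groups did not overlap either: Zfp612 had 507, 420 and 439 in sham and 313, 217 and 316 in TAC hearts. At an unadjusted p under 0.05 stood 29 members, or 13.2%, where the share of all genes was 28.2%. EdgeR called 0 members higher and 1 lower, where it called 3.57% of all genes, and DESeq2 called 2 higher and 7 lower, where it called 14.6%. With library totals as the only scaling, which shifts the median of all genes by 0.15, Zfp146 was called higher and no member lower, where 8.2% of all genes were higher and 0.951% lower, and Zfp787 was at -0.35 (adjusted p = 0.0553).

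As a group the members were centred near 0 in this comparison. Their median log2 fold change was -0.026 against -0.0047 over all genes, 101 lay above 0 and 118 below, and no member differed by 1 or more. Groups did not overlap in the higher direction for 15 members, or 6.85%, where the share of all genes was 17.8%. In the lower direction it was 27 members, or 12.3%, where that share was 17.4%. The most abundant member, Zfp106, stood at 0.06 ± 0.17 (adjusted p = 0.843). Summed fibroblast markers moved with the operation, at 64709 to 74504 in sham and 87972 to 145658 in TAC hearts, with all 10 markers listed and none at 0. Summed cardiomyocyte markers (10 of 10 listed) were 2428764 to 2574345 in sham and 1953533 to 2267019 in TAC hearts, and those of smooth muscle and pericytes (8 of 8) were 29725 to 36578 and 38788 to 38991. In bulk samples fewer cells of a type and less RNA per cell cannot be told apart, and the part of cell composition in the members' values was not tested.

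TAC was next compared with sham on the BCAA-free diet, in 6 libraries of which none stands in the comparison on the control diet. Here 2 members rose and 8 fell, or 4.57%, where 6.23% of 15670 genes were called, 3.34% higher and 2.89% lower. Zfp579 and Zfp746 rose. Zfp770, Zfp869, Zfp292, Zfp758, Zfp317, Zfp507, Zfp120 and Zfp106 fell. Of these 8, Zfp869, Zfp758, Zfp317 and Zfp120 carry the KRAB pattern. It was not found in the 2 that rose, which does not show that they lack the domain. Zfp746, also called PARIS, is known as a repressor of Ppargc1a, the gene of a regulator of mitochondrial biogenesis.

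Zfp579 (ENSMUSG00000051550, chr7:4983483-4996158, minus strand) encodes an 8-finger protein. Its values were 615, 666 and 583 in BCAA-free sham and 907, 1120 and 1091 in BCAA-free TAC hearts. Every TAC library lay above every sham library, by 0.74 ± 0.10 (adjusted p = 0.00542), and the call held with each library left out in turn. Zfp770 (ENSMUSG00000040321, chr2:114193461-114201469, minus strand), a 12-finger protein, went from 503, 521 and 635 to 378, 366 and 373, a log2 fold change of -0.56 ± 0.11 (adjusted p = 0.0193). Its 3 TAC values lay close together and below the lowest sham value. Zfp106 went from 20150, 21540 and 20942 to 18319, 17336 and 16536, without overlap (-0.26 ± 0.07, adjusted p = 0.0448).

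Log2 fold changes of the other members that fell lay between -0.44 and -0.62. Zfp292, a large protein with 15 finger matches, went from 797, 742 and 640 to 535, 537 and 501 (-0.46 ± 0.10, adjusted p = 0.0257). Zfp869 went from 755, 674 and 609 to 416, 530 and 452 (-0.54 ± 0.12, adjusted p = 0.0244). In both the highest TAC library was below the lowest sham library. Zfp758, Zfp507, Zfp120 and Zfp317 had log2 fold changes of -0.62, -0.62, -0.49 and -0.44, with adjusted p from 0.026 to 0.0407. Zfp746 had 594, 581 and 538 in sham and 698, 711 and 733 in TAC hearts (0.32 ± 0.09, adjusted p = 0.0491), without overlap, and its call was lost with any library left out. The count of members called was 1 without BCAA-free sham replicate 2 or without BCAA-free TAC replicate 3, 2 without sham replicate 1, 3 without TAC replicate 2 and 21 without sham replicate 3. The shares of all genes in these fits were not counted. With all 6 libraries edgeR called 1 higher and 8 lower, where it called 6.29% of all genes.

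Beyond the called members, most had lower values after TAC on this diet. The log2 fold change was below 0 for 159 of 219, with a median of -0.15 against 0.0014 over all genes. Among KRAB members 88 of 100 lay below 0, with a median of -0.21, and among the others 71 of 119, with a median of -0.062. Groups did not overlap in the lower direction for 57 members, or 26.0%, where the share of all genes was 15%, and in the higher direction for 14, or 6.39%, where it was 14.6%. These medians are descriptions, and no test was made of the set. Summed fibroblast markers were 68711 to 72670 in sham and 70888 to 83103 in TAC hearts of this diet and overlapped. Other sums did not overlap: cardiomyocyte markers went from a range of 2898216 to 3185769 to one of 3217133 to 3294302, macrophage markers (9 of 9 listed) from a range of 7342 to 8190 to one of 8527 to 9965, skeletal muscle markers (4 of 7) from a range of 66524 to 69963 to one of 81996 to 98796, and smooth muscle and pericyte markers from a range of 44948 to 49717 to one of 40259 to 44261. A sum is weighted to its most abundant genes: of the 8 smooth muscle and pericyte markers 6 had a log2 fold change above 0 and 2 below. Of the skeletal muscle list Myh1, Myh4 and Actn3 were absent, so its sum is not shown to come from skeletal muscle. The part of cell composition in the members' values was not tested.

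**Figure D1:**
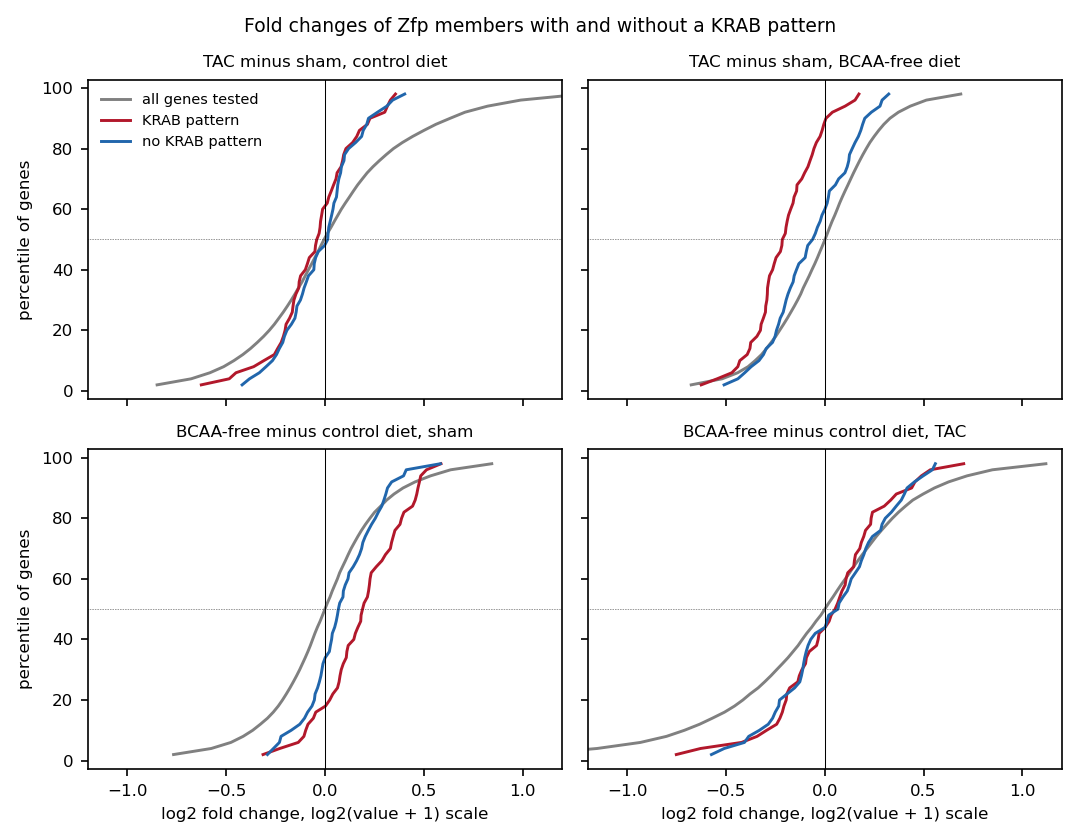
The curves give, for each percentile of genes (vertical axis), the log2 fold change (horizontal axis) of members with the KRAB pattern (red), members without it (blue) and all genes tested (grey) in the 4 comparisons. At its median the red curve lies left of the others for TAC under BCAA-free feeding, at -0.21, and right of them for the diet after sham, at 0.19, and in both panels the red curve crosses that of all genes near an end.

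The fold changes on the BCAA-free diet went with transcript composition. Across the 219 members, which share the same 6 libraries and are not independent replicates, the Spearman correlation of the log2 fold change with the GC content of the longest transcript was 0.64, and over all genes it was 0.49. On the control diet it was 0.024 across the members and -0.039 over all genes. The correlation with transcript length across the members was -0.29 on the BCAA-free diet and 0.17 on the control diet. Over all genes these were -0.31 and 0.22. When the members were split into 3 equal bins by GC content, the median log2 fold change on the BCAA-free diet was -0.28 in the low-GC bin, -0.18 in the middle bin and 0.058 in the high-GC bin. Of the 8 members that fell, 4 stood in the low-GC bin and 4 in the middle bin, and both members that rose stood in the high-GC bin. KRAB members made up 52 of the 73 members of the low-GC bin and 12 of the 73 of the high-GC bin. After removal, library by library, of the trend over GC content and transcript length, 1 member was called higher and 0 lower, none of them among the 10 called without that step, and over all genes the share called went down as well, from 6.23% to 0.544%. The members' median was then -0.054 against -0.0016 over all genes, the KRAB median -0.058 and the median of the others -0.052. The median deviation of the low-GC bin was 0.12, 0.13 and 0.18 in the sham libraries and -0.016, -0.18 and -0.17 in the TAC libraries.

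**Figure D2:**
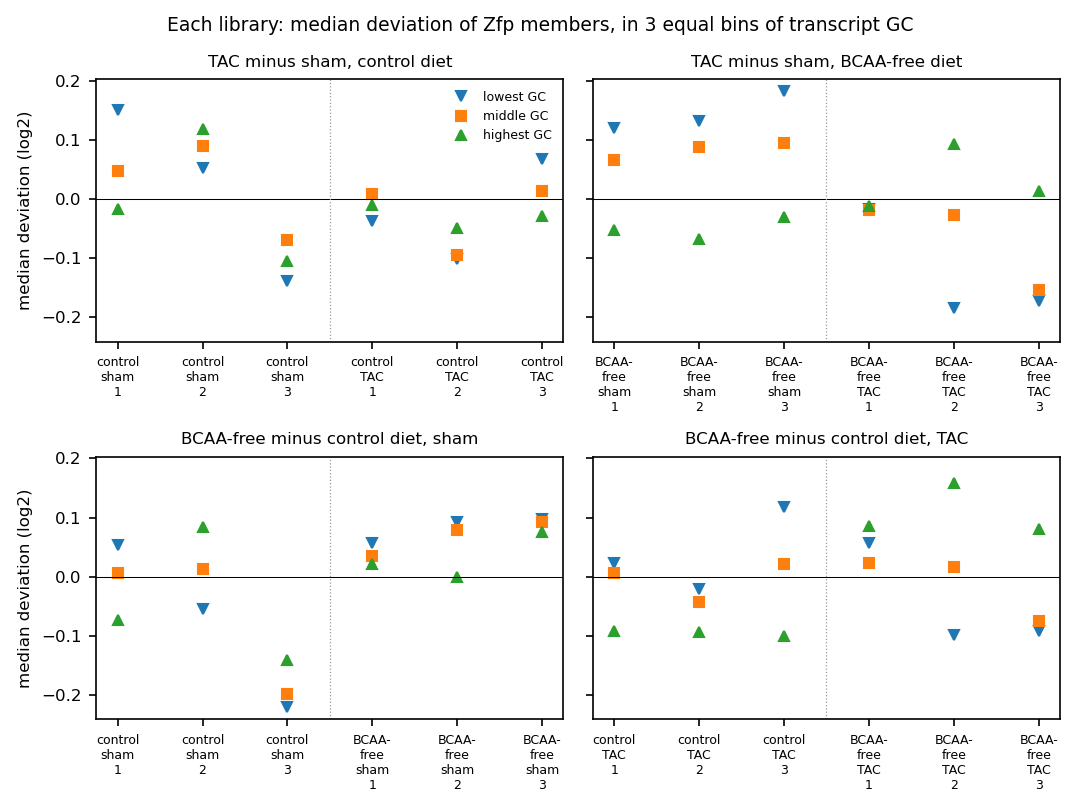
Each symbol is the median deviation (log2) of the members of 1 of the 3 bins of transcript GC content from their mean over the table, for each library of the 4 comparisons. The low-GC bin stands at 0.12 to 0.18 in BCAA-free sham libraries of its TAC table. All 3 bins stand below 0 in control diet sham replicate 3 and control diet TAC replicate 2, in both comparisons of each. They also do so in BCAA-free TAC replicate 1 for TAC against sham.

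**Figure D3:**
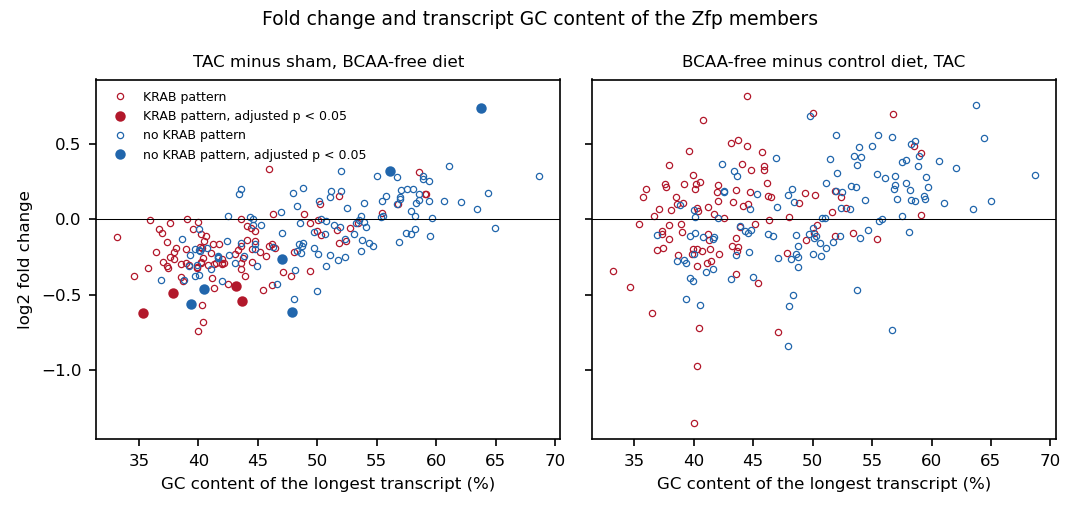
The log2 fold change of each of the 219 members (vertical axis) is set against the GC content of its longest transcript (horizontal axis), with KRAB members in red and the others in blue. Filled points in the left panel are the 10 members called in that comparison, and the Spearman correlation is 0.64 in the left panel and 0.37 in the right.

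The difference between the 2 TAC effects was tested directly as an interaction over the 12 libraries. The TAC libraries among them are those whose mean chose the members, so these p-values are not independent of that choice. It was called for 10 members, 5 in each direction, or 4.57%, where 8.65% of 15195 genes were called, 4.92% more positive and 3.73% more negative. The TAC effect was more positive on the BCAA-free diet for Zfp787, Zfp523, Zfp428, Zfp579 and Zfp706, none of which carries the KRAB pattern. It was more negative for Zfp770, Zfp869, Zfp146, Zfp317 and Zfp984, of which Zfp869, Zfp317 and Zfp984 do. The members' median was -0.12 against -0.030 over all genes, and with the GC and length trend removed it was 0.041 against 0.043. Without BCAA-free sham replicate 2, the library of lowest depth, no member was called by limma, and with any of the other libraries left out the count was between 1 and 13. Shares of all genes were not counted for these fits.

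The library values of the 10 genes differed in which diet and which group stood out. Zfp787 fell by 0.50 on the control diet and did not pass the test on the BCAA-free diet, with 1291, 1265 and 1307 in sham and 1337, 1336 and 1332 in TAC hearts, a difference of 0.05 ± 0.07. The interaction was 0.56 ± 0.12 (adjusted p = 0.0179). Zfp579 had overlapping groups on the control diet, with 480, 575 and 499 in sham and 604, 498 and 470 in TAC hearts, and its interaction was 0.73 ± 0.17 (adjusted p = 0.0238). Zfp770 had an effect of 0.19 ± 0.13 on the control diet and fell on the BCAA-free diet, with an interaction of -0.75 ± 0.17 (adjusted p = 0.0233).

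Zfp523, which encodes a 7-finger protein related to the promoter factor ZNF143, had 747, 692 and 750 in control diet sham and 592, 521 and 548 in control diet TAC hearts. On the BCAA-free diet it had 867, 802 and 850 in sham and 968, 1024 and 885 in TAC hearts. The groups did not overlap on either diet and stood in opposite orders, and the interaction was 0.59 ± 0.13 (adjusted p = 0.0197). Zfp706, a small protein with 1 finger match, likewise had 2913, 3108 and 3590 in sham and 2720, 2704 and 2652 in TAC hearts on the control diet, and 3431, 3564 and 3534 against 3752, 4028 and 4068 on the BCAA-free diet. Its interaction was 0.42 ± 0.12 (adjusted p = 0.0488). Of the 10 calls, those of Zfp523, Zfp706, Zfp787 and Zfp869 were also made with the GC and length trend removed, and those of the other 6 were not, where 4.21% of all genes were called. Scaling to library totals alone shifted the median of all genes by -0.20 and gave 3 members more positive and 16 more negative, where 2.53% and 9.57% of all genes were called.

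**Figure D4:**
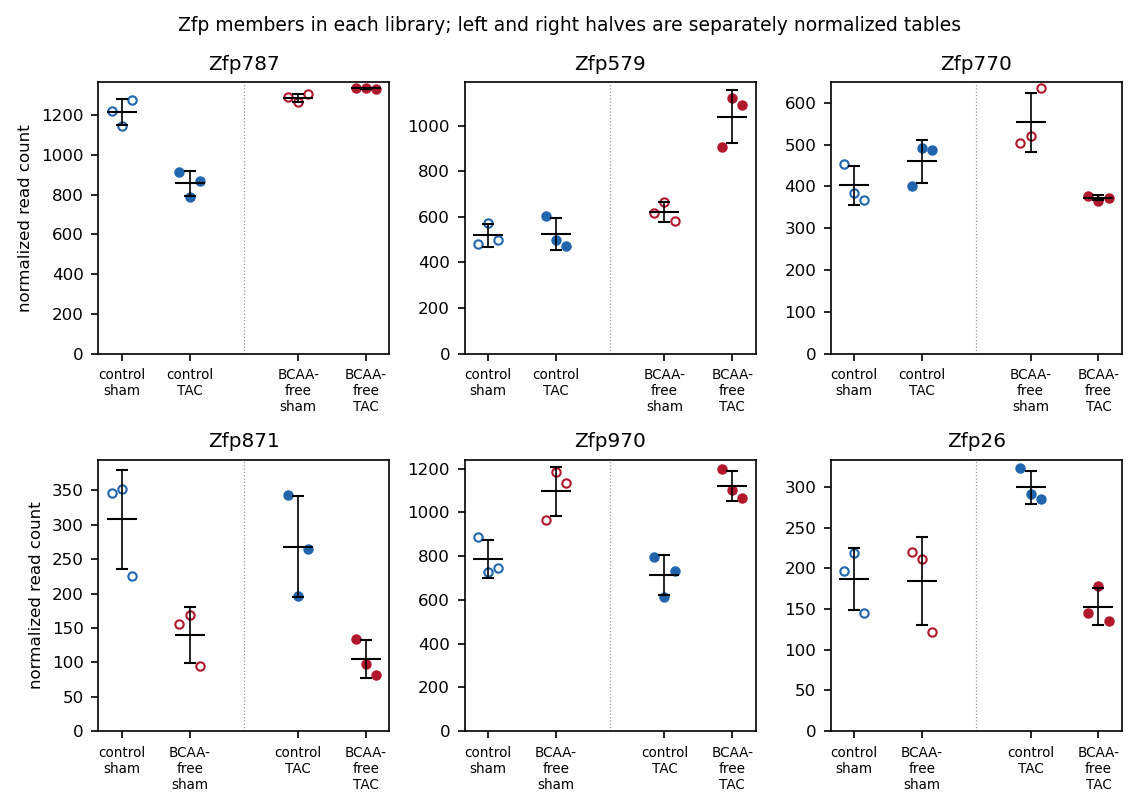
Normalized read counts in each library are shown for 6 members, with the mean and SD of 3 libraries per group; open points are sham, filled points TAC, blue the control diet and red the BCAA-free diet. The dotted line in each panel parts separately normalized tables: left of it Zfp787 is lower in TAC libraries, right of it Zfp579 is higher in TAC libraries, and on both sides Zfp871 is lower on the BCAA-free diet.

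The diets were compared after sham surgery, in 6 libraries that the choice of members did not use but that also served as the sham groups of the TAC comparisons. No member was called by limma, where 0.624% of 15217 genes were called, 0.25% higher and 0.375% lower. At an unadjusted p under 0.05 stood 36 members, or 16.4%, where the share of all genes was 16.6%. EdgeR called 0 members, where it called 0.598% of all genes, and DESeq2 called 4 higher and 1 lower, where it called 3.64%. The smallest p belonged to Zfp697, with 272, 322 and 256 on the control diet and 413, 438 and 442 on the BCAA-free diet (0.61 ± 0.13, adjusted p = 0.0583). Next came Zfp871, a 15-finger KRAB member, with 346, 352 and 225 against 156, 169 and 93.9 (-1.15 ± 0.24, adjusted p = 0.0597), the only member whose log2 fold change reached 1 in size. Zfp970, a 14-finger KRAB member on chromosome 2, had 886, 729 and 747 against 967, 1184 and 1136 (0.48 ± 0.12, adjusted p = 0.0907). Zfp446 had 130, 157 and 105 against 191, 201 and 228 (0.67 ± 0.18, adjusted p = 0.104). None of these 4 members had overlapping groups. Summed fibroblast markers were 62684 to 71337 on the control diet and 56411 to 59680 on the BCAA-free diet. Macrophage markers went from a range of 7584 to 11458 to one of 6027 to 6728, skeletal muscle markers (4 of 7 listed) from a range of 67654 to 107216 to one of 54616 to 57478 and smooth muscle and pericyte markers from a range of 28462 to 35348 to one of 36927 to 40817, also without overlap. Of the 4 skeletal muscle markers 2 lay above 0 and 2 below, and their sum is not shown to come from skeletal muscle. The part of cell composition in the members' values was not tested.

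Most members had higher values on the BCAA-free diet after sham surgery. The log2 fold change was above 0 for 160 of 219, with a median of 0.12 against -0.00045 over all genes. Of the KRAB members 82 of 100 lay above 0, with a median of 0.19, and of the others 78 of 119, with a median of 0.068. With the GC and length trend removed these medians were 0.11 and 0.055, against -0.014 over all genes. Groups did not overlap in the higher direction for 39 members, or 17.8%, where the share of all genes was 11.7%. In the lower direction it was 8, or 3.65%, where it was 11.3%. Among the libraries, control diet sham replicate 3 stood apart: the median deviation of the KRAB members was -0.26 there, against 0.017 and -0.037 in the other control libraries and 0.094, 0.11 and 0.11 in the BCAA-free libraries. Without that library the median was 0.071 over the members, 0.11 over KRAB members and 0.018 over the others, and 3 members were called, Zfp871, Zfp697 and Zfp869. The share of all genes called in that fit was not counted.

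The diets were then compared after TAC. The rule that chose the members used the mean of these 6 libraries, so the values of this comparison are descriptions and carry no test. The BCAA-free diet was higher for 33 members and lower for 18 at an adjusted p under 0.05, or 23.3%, where 34.2% of 15872 genes passed, 16.5% higher and 17.7% lower. The groups did not overlap for 56 members higher and 35 lower, where the shares of all genes were 25.2% and 25.6%. Of the KRAB members 13 of 100 passed and of the others 38 of 119. The median was 0.063 over the members and 0.00026 over all genes. With library totals as the only scaling, which shifts the median of all genes by -0.13, 17 were higher and 33 lower, so the balance of directions turned with this scaling, under which 9.18% of all genes were higher and 23.9% lower. With the GC and length trend removed, 48 were higher and 9 lower, where 17.6% and 12.2% of all genes were, and 24 and 9 of these were the same calls. Without BCAA-free TAC replicate 2 there were 30 calls, and without replicate 3 there were 29, and the shares of all genes in these fits were not counted. The median GC content of the members passing was 55.4% for those higher and 40.8% for those lower.

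The order of p served here only to choose which 12 members are named, and it supports none of them. They were Zfp26, Zfp710, Zfp579, Zfp970, Zfp523, Zfp292, Zfp775, Zfp446, Zfp507, Zfp704, Zfp871 and Zfp707. Zfp26, a 22-finger KRAB member, had 323, 291 and 285 on the control diet and 145, 178 and 135 on the BCAA-free diet (-0.98 ± 0.14), and overlapping groups after sham surgery (-0.05 ± 0.24, from -0.22 to 0.23 with 1 library left out). Zfp871 had 343, 196 and 265 against 134, 97.3 and 80.9 (-1.35 ± 0.24), the only member beyond 1 in size. Its groups stood in the same order after sham surgery, where limma called no member. Zfp970 had 794, 613 and 734 against 1197, 1101 and 1065 (0.66 ± 0.11), and Zfp446 had 156, 143 and 158 against 234, 259 and 244 (0.69 ± 0.12), and both were also without overlap after sham surgery. Zfp579 had 739, 605 and 573 against 940, 1162 and 1131 (0.76 ± 0.12). Zfp710 had 1420, 1284 and 1270 against 1921, 2144 and 1803 (0.56 ± 0.09). Zfp704, a member with 1 finger match, had 1150, 1112 and 1226 against 891, 832 and 746 (-0.50 ± 0.09). Zfp523, Zfp775 and Zfp707 were higher by 0.56, 0.55 and 0.70, and Zfp292 and Zfp507 had differences of -0.57 and -0.84. With the GC and length trend removed Zfp292 and Zfp704 no longer passed, at -0.18 and -0.16, and Zfp26 was at -0.57. For all 12 members the groups did not overlap.

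The members were also read by role, with the diets after TAC given as descriptions and 34.2% of all genes passing there. Of 11 proteins associated with RNA, ribosomes or the spindle, 10 were members. In this list 4 of 11 passed, or 36.4%: after TAC the BCAA-free diet was higher for Zfp36 (0.42), Zfp622 (0.29), a factor of the maturing large ribosomal subunit, and Zfp706 (0.32), and lower for Zfp326 (-0.28), a protein linked to splicing, whose difference was -0.02 with the GC and length trend removed. Zfp36 had 1452, 1690 and 1358 on the control diet and 1705, 2071 and 2240 on the BCAA-free diet, without overlap. Zfp207, which acts at the spindle checkpoint, had overlapping groups (-0.12), and so did Zfp638 (0.02) and Zfp598 (0.13), a sensor of stalled ribosomes. For TAC, Zfp106 on the BCAA-free diet was the 1 gene of this list that passed the test.

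Of 17 proteins of promoters and coregulator complexes, 16 were measured, all of them members, and 7, or 43.8%, passed. After TAC the BCAA-free diet was higher for Zfp219 (0.34), Zfp687 (0.30) and Zfp746 (0.28) and lower for Zfp462 (-0.58), Zfp148 (-0.41), Zfp281 (-0.40) and Zfp644 (-0.27). Zfp148 and Zfp281 are related factors that bind GC-rich promoter sequence. Zfp148 had 1320, 1340 and 1358 against 1091, 1015 and 931, without overlap. Zfp462, with 34 finger matches, had 314, 329 and 311 against 207, 255 and 183. With the GC and length trend removed none of the 4 that were lower passed: the difference of Zfp148 was -0.02, that of Zfp462 -0.26, that of Zfp281 -0.16 and that of Zfp644 0.05. That of Zfp219 was 0.20 and no longer passed, and neither did that of Zfp746, at 0.26. Zfp143, the mouse counterpart of ZNF143, did not pass in any comparison, with log2 fold changes from -0.20 to 0.31 in the 4 pairs of groups.

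Of 10 proteins of development and differentiation, all measured and 9 of them members, 3, or 30%, passed, and the BCAA-free diet after TAC was higher for Zfp703 (0.39) and lower for Zfp423 (-0.73) and Zfp516 (-0.47). With the trend removed Zfp703 was at 0.27 and no longer passed, and Zfp516 was at -0.29. Zfp423 and Zfp516 act in fat cell fate. Zfp423 had 129, 236 and 165 against 86.3, 109 and 115, with all control libraries above all BCAA-free ones. Summed fibroblast markers were 107659 to 177035 in these control diet TAC libraries and 73599 to 86151 in BCAA-free TAC libraries. Cardiomyocyte sums (2374362 to 2774369 against 3340157 to 3415125) and macrophage sums (13170 to 16248 against 8835 to 10330) did not overlap either. Endothelial, smooth muscle and pericyte, and skeletal muscle sums were lower on the BCAA-free diet without overlap. Some lists were split between directions, and a sum is weighted to its most abundant genes. Of the cardiomyocyte markers 5 lay above 0 and 5 below, and of those of smooth muscle and pericytes 3 and 5. Of the 4 tested skeletal muscle markers 2 lay above 0 and 2 below, and their sum is not shown to come from skeletal muscle. Adipocyte sums overlapped, at 148 to 631 against 346 to 1158. The part of cell composition in the value of Zfp423 was not tested. Zfp521, a relative of Zfp423, had -0.13 with overlapping groups. Of 8 KRAB proteins with known repeat or imprint targets, 6 were measured and 5 were members. Of the 6 measured 2, or 33.3%, passed, both lower: Zfp568 and the gene that was not a member (-1.16). Zfp568, which silences a placental transcript of Igf2 in the embryo, had 851, 938 and 1077 against 826, 498 and 441 (-0.75 ± 0.23, and -0.48 without a pass when the trend was removed), and BCAA-free TAC replicate 1 stood nearest to the control libraries. Zfp445, Zfp809, Zfp932 and Zfp93 had 0.11, -0.03, -0.10 and 0.33, and these 4 did not pass.

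The machinery that KRAB proteins recruit was followed through a list of 45 symbols, of which 42 were tested. For TAC on the control diet and for the diet after sham limma called 0 of them, where 4.04% and 0.624% of all genes were called. At an unadjusted p under 0.05 stood 2 and 1, where the shares of all genes were 28.2% and 16.6%. In both edgeR called 0, where it called 3.57% and 0.598% of all genes. DESeq2 called 1 higher on the control diet and 0 after sham, where it called 14.6% and 3.64% of all genes in either direction. Under BCAA-free feeding 1 fell after TAC, Fam208a, which encodes TASOR of the HUSH silencing complex (-0.39 ± 0.09, adjusted p = 0.034), or 2.38% of the list, where 2.89% of all genes fell. With the GC and length trend removed it was at -0.09 (adjusted p = 0.724). The list's median there was -0.09, and -0.01 with the trend removed. Trim28, the corepressor itself, had 0.31 ± 0.09 (adjusted p = 0.0503), and 0.08 with the trend removed. For the diet after TAC, where the mean rule played no part in choosing this list, 3 rose and 5 fell by limma's test, or 19%, where the share of all genes was 34.2%. Trim28 rose by 0.35 ± 0.08 (adjusted p = 0.0106) and the SUMO gene Sumo3 by 0.36 ± 0.07 (adjusted p = 0.00781). Uhrf1, the partner of the maintenance DNA methyltransferase, fell by 1.11 ± 0.31 (adjusted p = 0.0254) and Cbx5, heterochromatin protein 1 alpha, fell by 0.37 ± 0.10 (adjusted p = 0.0177). With the trend removed Cbx5 was at -0.02 (adjusted p = 0.914), while Trim28, Sumo3 and Uhrf1 still passed. The interaction called 1, Mbd3 of the NuRD complex (0.39 ± 0.11, adjusted p = 0.0438), where 8.65% of all genes were called, and with the trend removed its interaction was 0.03 (adjusted p = 0.88).

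In at least 1 of the 4 comparisons other than that of the diets after TAC, 16 members were called, or 7.31%, where the share of all genes tested in all 4 was 15%. Zfp317, Zfp579, Zfp770, Zfp787 and Zfp869 were called in more than 1, but these comparisons share libraries, so the counts are not independent. In the authors' deposited table of each comparison, members were called higher and lower 2 and 7 times for TAC on the control diet, 3 and 17 for TAC with BCAA-free feeding, 4 and 1 for the diet after sham, and 31 and 21 for the diet after TAC. These are 4.11%, 9.13%, 2.28% and 23.7% of the members, where the authors' deposited table called 14.5%, 11.4%, 3.59% and 35.1% of all genes with an adjusted p. In that order, the calls in the authors' deposited table shared 1 of 1, 10 of 10, 0 of 0 and 49 of 51 of the calls made here.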

How the data were processed

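The tools named, per the submitters' processing notes, are STAR 2.5.2b, Trimmomatic 0.36, DESeq2 (version not given) and Subread 1.5.2, with the builds mm10 and GRCm38. Neither the role of each nor the use of strand in counting is given in the sources used here, so antisense or overlapping genes cannot be told apart. The deposited signal of a gene is its count over the authors' size factor (1 per library and table), here called a normalized read count. All values came out within 0.01 of whole reads. The deposited log2 fold changes and p-values, the authors' own, served for counts of shared calls.

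Each comparison was fitted with limma 3.58.1 in R 4.3.3 (intensity trend, robust variances, statmod 1.5.0) on log2(value + 1) within 6 libraries, over genes with a mean of at least 10. The Benjamini-Hochberg adjustment ran over all genes tested, and calls have an adjusted p under 0.05. The interaction used the 12 libraries of the joined TAC tables. Alternatives were TMM rescaling, library totals, no filter, a mean of at least 100, a pseudocount of 10, edgeR 4.0.16 and DESeq2 1.42.0 on recovered reads, a replicate block, removal of each library's GC and length trend (natural splines), fits on 12 libraries, and each library left out. Fits were tested on simulated data. Positions, GC content and coding sequences come from GENCODE M21 (GRCm38), finger and KRAB patterns from their translation, and promoters from RefSeq.

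Named members were up to 12 called per comparison in order of p (4 where fewer than 4 were called), the 6 of highest mean, the role lists, the edges of the threshold and the ends of the finger range. The members and lists were chosen with earlier results of these data known. Replicates of a group differed by more than counting error (mean chi-square per gene of 4.64 to 67.0). The table that compares diets after sham holds only libraries that the mean rule did not use, and 3 of the 6 libraries of each TAC table were used by it.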

Additional observations from a re-analysis of the deposited data

Results flagged for a closer look

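For 10 members the TAC effect differed between the diets by a direct test, limma's interaction term adjusted over all genes. The TAC libraries in that test are those whose mean the rule used to choose the members. The effect on the BCAA-free diet minus that on the control diet was 0.56 for Zfp787 and 0.59 for Zfp523, and it was 0.78 for Zfp428, 0.73 for Zfp579 and 0.42 for Zfp706. It was -0.75 for Zfp770 and -0.62 for Zfp869, and it was -0.50 for Zfp146, -0.48 for Zfp317 and -0.81 for Zfp984. Zfp428 had 399, 365 and 399 in sham and 293, 208 and 274 in TAC hearts on the control diet, and 397, 380 and 385 against 456, 420 and 439 on the BCAA-free diet. Zfp984 had 112, 101 and 92.2 against 125, 179 and 161 on the control diet, and 131, 156 and 121 against 116, 123 and 110 on the BCAA-free diet. Zfp146 had 663, 692 and 618 against 766, 879 and 856, and 859, 815 and 953 against 842, 776 and 739. With each library left out in turn, Zfp523 was called in 11 of 12 fits and Zfp787 in 10 of 12, and Zfp317 and Zfp706 in 1 of 12 each. With the GC and length trend removed, the interaction of Zfp428 was 0.32 (adjusted p = 0.289) and that of Zfp770 -0.45 (adjusted p = 0.109).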

How the results depend on the processing

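Counts of called members moved with the setting, and so did those over all genes. For TAC on the control diet 2 were called with a replicate block, 9 by DESeq2, 10 with the GC and length trend removed and 15 in a fit on 12 libraries, against 1, where these settings called 5.34%, 14.6%, 9.65% and 19.5% of all genes, against 4.04%; the median was 0.12 with library totals and -0.12 with the trend removed. For TAC on the BCAA-free diet 16 were called at a mean of at least 100, 20 by DESeq2, 1 with the trend removed and 1 on 12 libraries, against 10, where 10.5%, 11.2%, 0.544% and 0.424% of all genes were called, against 6.23%, and the median was -0.054 with the trend removed. For the diet after sham 1 was called with a replicate block, 5 by DESeq2, 3 with the trend removed and 3 on 12 libraries, against 0, where 0.94%, 3.64%, 2.46% and 2.35% of all genes were called, against 0.624%. For the diet after TAC the median was -0.066 with library totals and 0.14 with the trend removed. For the interaction 19 were called with library totals and 19 by DESeq2, against 10, where 12.1% and 15.1% of all genes were called, against 8.65%, with medians of -0.29 with library totals and 0.041 with the trend removed. The cause was not tested. With the trend removed 5 of the values followed for named genes changed sign. These were Zfp579 (-0.025) and Zfp317 (-0.059) for TAC on the control diet and Zfp428 (-0.17) for TAC with BCAA-free feeding. For the diet after TAC they were Zfp644 (0.049) and Zfp106 (0.048). Other members were not followed in this count, and the members' median of the interaction turned from -0.12 to 0.041. Leaving out 1 library gave 0 to 4 calls and medians of -0.093 to 0.019 for TAC on the control diet, 1 to 21 and -0.17 to -0.11 for TAC on the BCAA-free diet, 0 to 3 and 0.071 to 0.15 for the diet after sham, 29 to 49 and 0.021 to 0.077 for the diet after TAC, and 0 to 13 calls and -0.17 to -0.030 for the interaction. It also turned the sign of Zfp579 for TAC on the control diet (-0.094 to 0.089) and of Zfp579 (-0.018 to 0.11) and Zfp26 (-0.22 to 0.23) for the diet after sham. No share of all genes was counted for the fits with 1 library left out. The replicate numbers did not pair the samples, with correlations of deviations between -0.18 and 0.081 for the same number. The block gave 15 calls for TAC with BCAA-free feeding, 40 for the diet after TAC and 14 for the interaction. With the block 8.43%, 29.2% and 10.4% of all genes were called, in that order.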

Other observations

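Other gene families of C2H2 zinc finger proteins were read in the same fits. For TAC on the BCAA-free diet 19 of 21 Zkscan and Zscan genes lay below 0, with a median of -0.21, and 25 of 41 Zbtb genes, with a median of -0.14, of which 4, or 9.76%, were called lower, where 2.89% of all genes were, and 0 with the GC and length trend removed. The 105 tested Zfp genes below the threshold had a median of -0.25 there, with 83 below 0. For the diet after sham 18 of the 21 Zkscan and Zscan genes lay above 0 (median 0.15), as did 77 of the 101 tested Zfp genes below the threshold (median 0.20). The 13 Klf genes, which encode activators and repressors with 3 closely spaced fingers, had medians of -0.04 and 0.19 in these comparisons. The 2 comparisons share the BCAA-free sham libraries and are not independent.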
